A study of Mus musculus with 2 samples.

Results

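The polyamine genes described here were 10 genes taken by symbol from the 24054 genes of the deposited TPM table, and all 10 were listed there. They cover synthesis (Odc1, Amd1, Amd2, Srm and Sms), control of the first enzyme by antizymes (Oaz1, Oaz2 and Azin1) and breakdown (Sat1 and Paox). The set was chosen by function and also selected on the KO and WT values of Amd1 in both deposited tables, so the contrast between the libraries is given as a description. Liver RNA came from male C57BL/6 mice, 8 to 12 weeks old, that were either WT or Pgrmc1 KO (Pgrmc1 -/Y), with the floxed allele made in C57BL/6N. In the KO mice, Sox2-Cre had removed exons 1 and 2 of the floxed X-linked gene throughout the body, and whether the WT mice carried Cre is not given in the sources used here. Equal masses of RNA (2.5 μg per mouse) were pooled, and 1 library was sequenced per genotype. With no replicate of either genotype, the spread between mice is unknown, and no p-value was computed. TPM, a scaled share of all transcripts, is a level corrected for transcript length. A change is given as log2((KO TPM + 1)/(WT TPM + 1)), which understates the change of low genes.

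Polyamines are small, positively charged metabolites that bind nucleic acids and are needed for growth and translation. Ornithine decarboxylase makes putrescine from ornithine, and S-adenosylmethionine decarboxylase makes the aminopropyl donor. Spermidine synthase and spermine synthase then add aminopropyl groups to give spermidine and spermine. Antizymes bind ornithine decarboxylase and send it to the proteasome without ubiquitin, and antizyme inhibitors compete with the enzyme for antizyme. Spermidine/spermine acetyltransferase and polyamine oxidase return spermine and spermidine to putrescine.

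Pgrmc1 itself stood at 0.68 TPM in the KO and 949.49 TPM in the WT library, the order that the labels give. The low values of the authors' library means fell mostly on multiples of a step taken as 1 read, which gave 22086692 estimated reads in KO and 29710419 in WT. All 6 hepatocyte markers examined were above 0 and lower in KO than in WT, and their sum was 68552 TPM in the KO and 71921 TPM in the WT library. Markers of the other cell types summed to a log2 change from -0.45 for lymphocytes (1.24 TPM in the KO and 2.06 TPM in the WT library) to 0.24 for neutrophils (6.08 and 5 TPM). Kupffer cell markers, 5 of 5 higher in KO, summed to 180.63 and 160.68 TPM. Endothelial markers, 0 of 4 higher in KO, summed to 97.72 and 110.5 TPM, and stellate cell markers, 1 of 4 higher, to 171.16 and 196.55 TPM. Red cell markers, 1 of 3 higher, summed to 159.73 and 191.05 TPM. Hbb-bs, a hemoglobin gene, and Nkg7, a lymphocyte gene, passed the fold rule given below, both lower in KO. The part of these cell types in the changes below was not tested, and in bulk RNA fewer cells of a type and less RNA per cell cannot be told apart.

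S-adenosylmethionine decarboxylase is encoded in the mouse by Amd1 and its nearly identical copy Amd2. Amd1 (Entrez gene 11702) lies on chromosome 10 at 40287458 to 40302188 of GRCm38, the assembly also called mm10, on the minus strand and with 8 exons. Amd2 (Entrez gene 100041585) lies on the same strand of chromosome 10 at 35708691 to 35711891 and has 1 exon. In GENCODE M21 the Amd1 transcript has 3204 bases and the Amd2 transcript 3218. Aligned over 3201 bases they differed by 11 substitutions and 7 gap bases, an identity of 99.7%. Within the 1005 coding bases, stop codon included, there was 1 difference. It is G796C, with the base of Amd1 first, the position counted from 1 at the start codon, and the base of Amd2 last. The 121 bases around it are shown because they hold the only coding position at which a read could tell the copies apart. They lie in exon 7 of 8 of Amd1 (chr10:40290126-40290246) and in the only exon of Amd2 (chr10:35710704-35710824), both on the minus strand. Sequences are from the GENCODE transcripts, read 5′ to 3′ with the base that differs in capitals.
Amd1: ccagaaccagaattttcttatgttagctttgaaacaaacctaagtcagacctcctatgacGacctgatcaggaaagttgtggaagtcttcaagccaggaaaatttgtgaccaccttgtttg
Amd2: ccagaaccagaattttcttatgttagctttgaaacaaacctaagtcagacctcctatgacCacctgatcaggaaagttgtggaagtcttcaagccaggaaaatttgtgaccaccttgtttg

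Of the remaining substitutions, 1 lay before the coding region and 9 after it. The longest identical stretch ran over 930 bases. Of the 3105 windows of 100 bases in the Amd1 transcript, 2273 (73.2%) occurred unchanged in Amd2, as did 1624 of 3005 windows of 200 bases (54.0%). A read of the paired 100-base design that falls in such a window matches both genes equally well. GENCODE also holds transcripts of 5 Amd pseudogenes, 0 of which are listed among the deposited TPM values. With these counted, 76.4% of the 100-base windows of Amd1 occurred in at least 1 other gene. The closest of them, Amd-ps3, differed from Amd1 at 1 and from Amd2 at 2 of 1005 aligned bases.

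**Figure D1:**
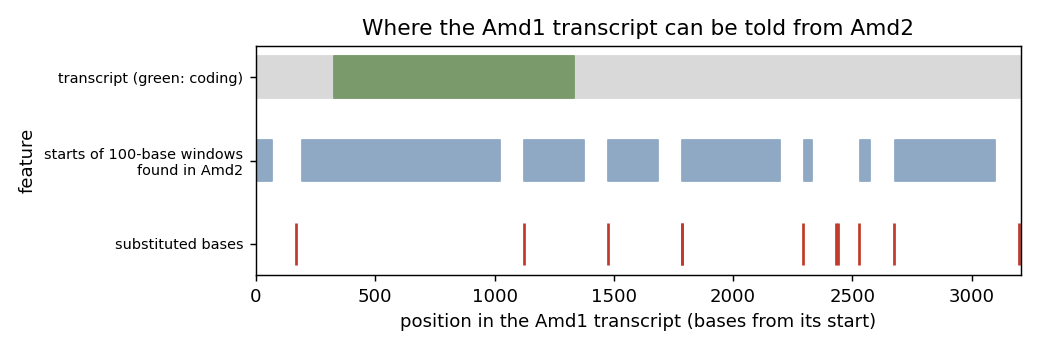
Map of the Amd1 transcript (x axis, bases from its start, 3204 in all), with the coding region in green, the start positions of 100-base windows that also occur in Amd2 in blue, and the 11 substituted bases in red. The blue blocks cover 73.2% of all window starts, and 1 red line falls in the coding region.

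The deposited TPM of Amd1 was 9.76 in KO and 17.45 in WT, a log2 change of -0.78. The TPM of Amd2 was 20.26 in KO and 17.94 in WT, a log2 change of 0.17. Amd1 was thus the lower copy in KO, whereas both copies had nearly the same level in WT. Amd1 made up 32.5% of the TPM of the pair in KO and 49.3% in WT.

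The second deposited table holds the authors' mean of each library, that is, estimated reads divided by a size factor. There Amd1 was listed at 0 in KO and at 289.29 in WT (336 estimated reads), so no fold is given. Amd2 was listed at 1488.76 in KO and 1452.27 in WT, from 1281 and 1688 estimated reads, a log2 ratio of 0.04. In that table Amd1 held 0% of the pair in KO and 16.6% in WT. The tables therefore placed different shares of the pair on Amd1 in both libraries, although both tables put Amd1 lower in KO.

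Summed, Amd1 and Amd2 had 30.02 TPM in the KO and 35.39 TPM in the WT library, a log2 change of -0.23, or 15.2% less in KO. The sum of the authors' means was 1488.76 in KO and 1741.56 in WT, a log2 ratio of -0.23, or 14.5% less in KO. Both tables gave the same change for the pair to within 0.01 on the log2 scale. They rest on the same reads, so this is not an independent check of the change. The 95% interval of the ratio of means was -0.33 to -0.12 on 1281 and 2024 estimated reads and did not hold 0. Intervals here and below were computed by the Clopper-Pearson method from the estimated reads. They hold counting error alone and leave out the variation of mice. Among 6235 genes averaging 10 TPM or more, 6.08% changed further downward than the pair.

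**Figure D2:**
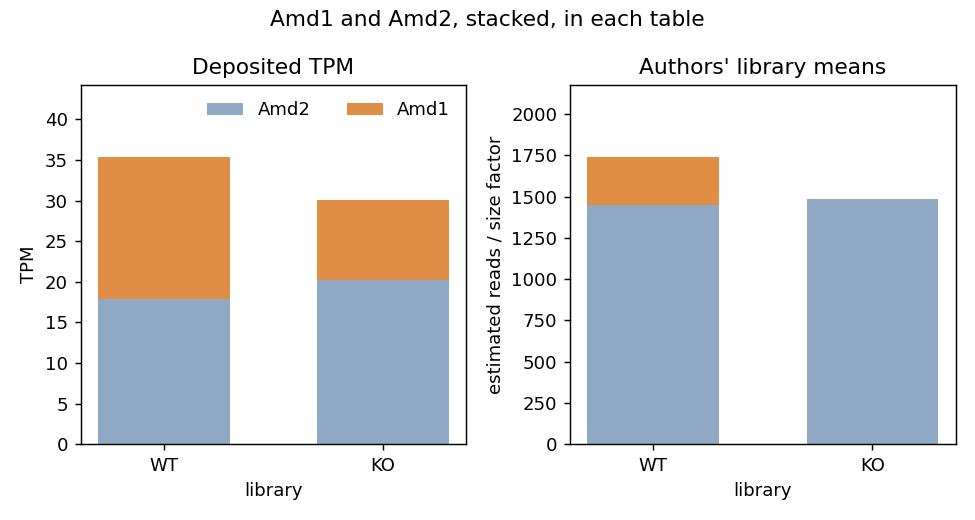
Stacked bars of Amd1 (orange) and Amd2 (blue) in the WT and KO libraries, in TPM (left) and in the authors' means of estimated reads per size factor (right). The division between the copies differs between the tables, while the summed bar stands at 30.02 TPM in KO and 35.39 in WT, and at 1488.76 and 1741.56 in the means.

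The authors' mean of a gene was also divided by its TPM, a quotient that grows with transcript length. For the other 8 members, this quotient in KO was between 1.003 and 1.015 times that in WT. For Amd1 it was 0 in KO and 16.6 in WT, and for Amd2 it was 73.5 in KO and 81.0 in WT. For the summed pair it was 49.6 in KO and 49.2 in WT, close to the 52.2 and 51.9 of Sms, whose transcript has 3717 bases. The quotient did not follow the GENCODE length for every member. For Paox, with 4655 bases, it was 25.6 in KO and 25.4 in WT. Of 11533 genes averaging 1 TPM or more, 235 (2.04%) had a KO/WT ratio of quotients more than 5% away from the median ratio. The tables thus differed in the division of the pair and not in its sum.

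Amd1 alone among the 10 members passed the fold rule, set at a KO/WT fold of at least 1.4 or at most 0.6 with TPM above 0 in both libraries. It passed downward, at a fold of 0.583. Over all 22847 genes with TPM above 0 in both libraries, 0.166% passed downward and 0.665% upward, and of those averaging 1 TPM or more, 0.301% passed downward. The rule by which the members were chosen knew this contrast, and nothing is read from the count. On the authors' means, where the condition on values above 0 leaves Amd1 out, no member passed, beside 0.625% of genes downward. With folds of 2 and 0.5 no member passed, beside 0.0569% downward. Counted as 1 gene with Amd2, at a fold of 0.852, Amd1 did not pass. With Amd1 and Amd2 counted apart, the median log2 change of the 10 members was -0.07, beside -0.01 over the 11623 genes averaging 1 TPM or more. With the pair as 1 value, the middle of the 9 values was that of Oaz2, -0.14.

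Odc1 encodes ornithine decarboxylase, the first and rate-limiting enzyme of the pathway (chromosome 12, 17544808 to 17551502). Odc1 RNA was at 42.07 TPM in the KO and 39.22 TPM in the WT library, a log2 change of 0.10. The 95% interval of its ratio of means, 0.01 to 0.22, lay just above 0, on 1409 and 1758 estimated reads. Odc1 was thus slightly higher in KO, the opposite direction to that of the Amd pair. Of its 100-base windows, 19.6% also occur in transcripts of 8 other genes, 0 of which are listed among the deposited TPM values.

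Srm, spermidine synthase (chromosome 4, 148591513 to 148594619), stood at 13.55 TPM in the KO and 16.45 TPM in the WT library, a log2 change of -0.26. Its interval of -0.51 to -0.02 did not hold 0, on 220 and 357 estimated reads. Sms, spermine synthase (chromosome X, 157443851 to 157492287), was the lowest member, at 3.43 TPM in the KO and 3.02 TPM in the WT library, a log2 change of 0.14. On 154 and 182 estimated reads its interval of -0.13 to 0.51 held 0, so a difference was not detectable at this depth. The changes of the 2 synthases thus had opposite signs, that of Sms within counting error. The ratio of Srm to Sms TPM was 3.95 in KO and 5.45 in WT, without an interval. Srm shares none of its 100-base windows with another gene, whereas 27.7% of those of Sms occur in the pseudogene Sms-ps, which has no deposited TPM. The 5 synthesis genes together summed to 89.07 TPM in the KO and 94.08 TPM in the WT library, a log2 change of -0.08, and the interval of their ratio of means, -0.13 to 0.00, held 0.

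Oaz1, antizyme 1 (chromosome 10, 80826656 to 80829290), had the highest level of all members, with 322.07 TPM in the KO and 316.08 TPM in the WT library. It held 60.4% of the summed TPM of the 10 members in KO and 57.8% in WT. Its log2 change was 0.03, with an interval of -0.03 to 0.09 that held 0 on 4050 and 5351 estimated reads. Oaz1 too has a copy in the TPM table, the pseudogene Oaz1-ps on chromosome 17 (17345242 to 17346204), and 41.8% of the 100-base windows of Oaz1 occur in it. Oaz1-ps was listed at 52.05 TPM in the KO and 60.05 TPM in the WT library, a log2 change of -0.20. Its log2 ratio of means was -0.08, so the tables differed for this copy too. Summed with it, Oaz1 had 374.12 TPM in the KO and 376.13 TPM in the WT library, a log2 change of -0.01. The level of Oaz1 was thus nearly equal in the libraries with and without its copy.

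Oaz2, antizyme 2 (chromosome 9, 65676548 to 65690300), stood at 14.54 TPM in the KO and 16.07 TPM in the WT library, a log2 change of -0.14, and its interval of -0.33 to 0.07 held 0. Summed antizyme TPM was 8.00 times that of Odc1 in KO and 8.47 times in WT. Azin1, the antizyme inhibitor, which resembles ornithine decarboxylase but lacks its activity (chromosome 15, 38487430 to 38519294), was at 33.91 TPM in the KO and 37.56 TPM in the WT library. Its log2 change was -0.14, with an interval of -0.21 to -0.06 on 2257 and 3348 estimated reads that did not hold 0. Azin1 stood at 0.806 times the TPM of Odc1 in KO and at 0.958 times in WT. Like Srm, Azin1 shares no 100-base window with another gene.

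Of the breakdown genes, Sat1, spermidine/spermine N1-acetyltransferase (chromosome X, 155213126 to 155216449), was second in level to Oaz1, with 45.77 TPM in the KO and 54.88 TPM in the WT library. Its log2 change of -0.26 came with an interval of -0.39 to -0.10 on 644 and 1028 estimated reads, which did not hold 0. Paox, the peroxisomal oxidase of acetylated polyamines (chromosome 7, 140115735 to 140134334), was at 27.70 TPM in the KO and 27.75 TPM in the WT library. Its log2 change was 0.00, with an interval of -0.14 to 0.17. Of the windows of its longest protein-coding GENCODE transcript, 25.4% occur in Gm19680, which has no deposited TPM. The quotient of Paox did not follow the length of that transcript, so this share may not describe the RNA measured.

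**Figure D3:**
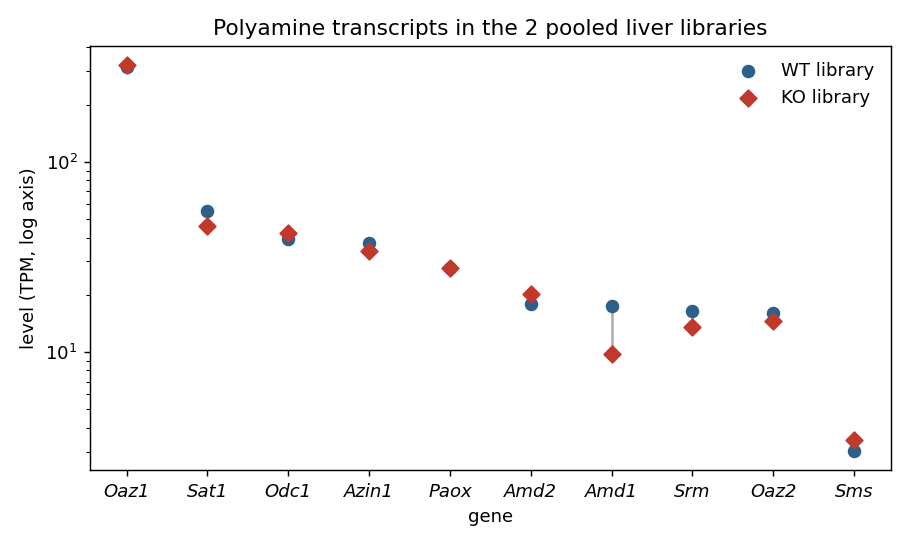
Level in TPM (log axis) of the 10 members in the WT library (blue circles) and the KO library (red diamonds), ordered by the WT level; 1 pooled library each, so there are no error bars. Oaz1 stands far above the others, and the gap between the libraries is widest for Amd1 (9.76 in KO and 17.45 in WT). The levels of Amd1 and Amd2 depend on how TPM divides the pair.

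By level, with Amd1 and Amd2 kept apart, Oaz1, Sat1, Odc1, Azin1 and Paox came first in both libraries, in this order. Amd2 followed, and Amd1, which stood above Srm and Oaz2 in WT, stood below both in KO. The places of Amd1 and Amd2 depend on how TPM divides the pair. Summed, the pair (30.02 TPM in KO and 35.39 TPM in WT) stood between Azin1 and Paox in both libraries. Whether neighbours in this order differ beyond the spread between mice cannot be told from 1 library per genotype.

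With the Amd pair taken as 1 value, 9 values had an interval. It lay below 0 for 4 of them (the Amd pair, Srm, Azin1 and Sat1), above 0 for 1 (Odc1) and held 0 for 4 (Sms, Oaz1, Oaz2 and Paox). Over 11539 genes averaging 1 TPM or more, the interval lay below 0 for 13.4% and above 0 for 11.7%. An interval is narrower where a gene has more reads, and the contrast was known when the members were chosen, so nothing is read from these counts. All 9 values lay between the fold limits, although the interval of Sms reached 0.51, past the upper limit. The 5th and the 95th percentile of log2 change among genes averaging 1 TPM or more were -0.27 and 0.27, and Amd1 was the 1 member outside them. Among genes averaging 10 TPM or more these percentiles were -0.25 and 0.20, with Srm and Sat1 just below the lower one.

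**Figure D4:**
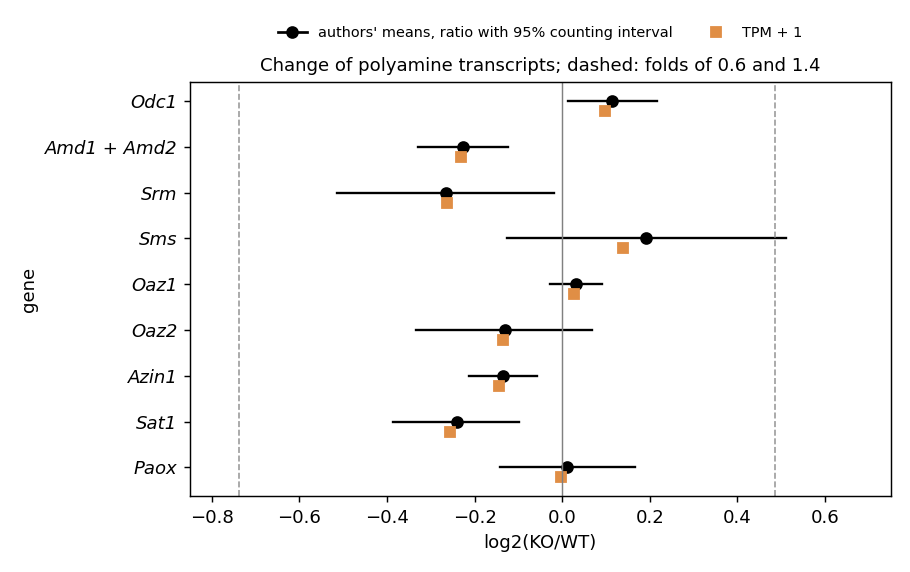
Log2(KO/WT) of 8 members and of the Amd pair, as the ratio of the authors' means with its 95% counting interval (black) and from TPM + 1 (orange squares); dashed lines mark folds of 0.6 and 1.4. All 9 points lie between the dashed lines, although the interval of Sms reaches past the upper one. The intervals of the Amd pair, Srm, Azin1 and Sat1 lie below 0.

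The genes around the pathway were taken as a list of 30, all of them listed in the TPM table (Azin2 under its older symbol Adc), and 23 averaged 1 TPM or more. None of the 23 passed the fold rule in either direction, beside 1.09% upward and 0.301% downward of all genes at that level. Of these 23, 12 lay above 0 and 11 below, with a median log2 change of 0.00. Over all genes at that level, 5319 of 11623 lay above 0 and 6257 below. With the 7 genes under 1 TPM included, 18 of the 30 lay above 0 and 12 below.

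Among the 4 genes of ornithine and arginine supply averaging 1 TPM or more, Agmat, the agmatinase of the agmatine route to putrescine, was highest. It stood at 101.18 TPM in the KO and 91.16 TPM in the WT library, a log2 change of 0.15. The lowest was Slc7a2, a carrier of cationic amino acids, at 200.32 TPM in the KO and 239.43 TPM in the WT library, a change of -0.26. Arg1, the arginase that makes ornithine in liver, was at 1319.30 and 1486.16 TPM, a change of -0.17.

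Of the 8 genes of the methionine and methylthioadenosine cycle, which supplies S-adenosylmethionine and recovers methionine from the by-product of the synthases, 4 lay above 0 and 4 below. Apip, an enzyme of methionine salvage, was highest at 19.50 TPM in the KO and 16.94 TPM in the WT library, a log2 change of 0.19. Mat2b, a regulatory subunit of methionine adenosyltransferase, was lowest at 22.82 TPM in the KO and 25.11 TPM in the WT library, a change of -0.13. Mat1a, the methionine adenosyltransferase of adult liver, was at 1105.68 and 1027.11 TPM, a change of 0.11.

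Smox, spermine oxidase, and Sat2 were the 2 genes of the breakdown and paralog group averaging 1 TPM or more, with log2 changes of -0.10 (2.28 TPM in the KO and 2.51 TPM in the WT library) and -0.13 (9.38 and 10.36 TPM). In the hypusine group, Dhps, which uses spermidine to modify eIF5A, was highest at 7.88 TPM in the KO and 7.46 TPM in the WT library, a change of 0.07. Dohh, which completes hypusine, was lowest at 16.05 TPM in the KO and 16.69 TPM in the WT library, a change of -0.05. The 6 transport genes ran from -0.16 for Atp13a3, a polyamine carrier (59.08 TPM in the KO and 66.03 TPM in the WT library), to 0.28 for Slc22a3, an organic cation carrier (1.87 and 1.37 TPM). The 23 changes thus ran from -0.26 to 0.28, beside -0.26 (Srm) to 0.14 (Sms) for the members with the Amd pair as 1 value.

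**Figure D5:**
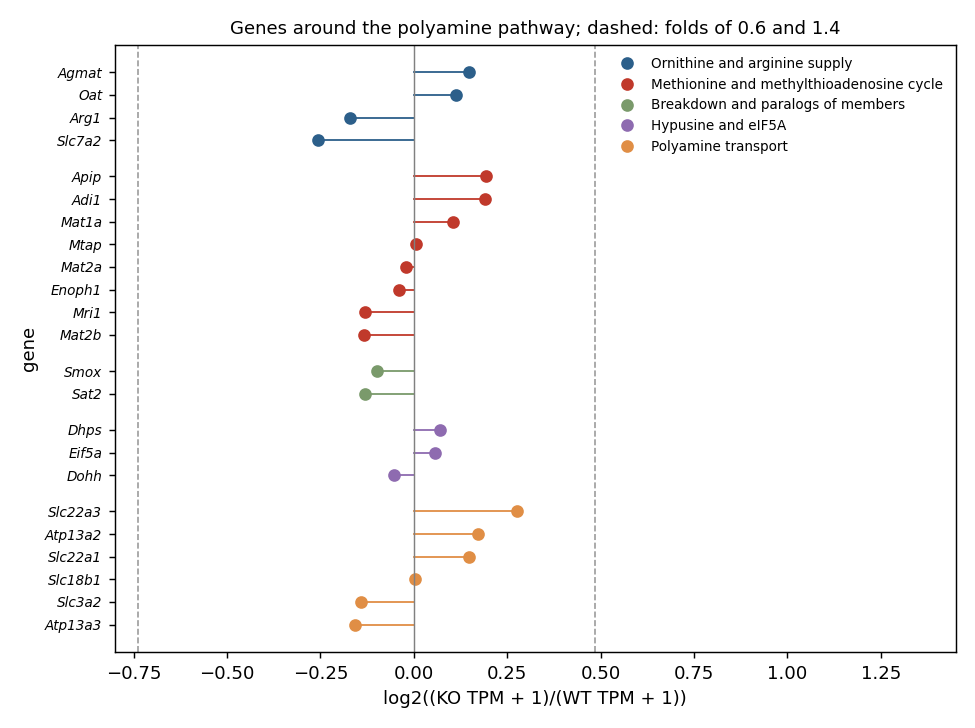
Log2((KO TPM + 1)/(WT TPM + 1)) of the 23 pathway genes averaging 1 TPM or more, coloured by group and ordered within it; dashed lines mark folds of 0.6 and 1.4. No gene reaches a dashed line, and 12 of the 23 lie above 0, beside 5319 of 11623 genes at that level.

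Likeness to Amd1 was taken in the authors' means over the 2 libraries, as under 3 estimated reads in KO with a high value in WT. Amd1 came at position 3 in WT reads among such genes, after Gm14308 (0 in KO and 578 in WT) and Eif3j1 (0.07 and 560 estimated reads), a subunit of translation initiation factor 3. Gm20752 (2 and 101 estimated reads), A330049N07Rik (1 and 84.99) and Trpc2 (2.78 and 23) followed. In the TPM table, Gm14308 was listed at 2.67 in KO and 2.52 in WT, and Eif3j1 at 25.20 and 18.38, so TPM was not lower in KO for these. It was lower in KO for the others, as for Amd1, at 0.08 and 2.03 for Gm20752, 0.08 and 2.51 for A330049N07Rik and 0.13 and 0.20 for Trpc2. At 100 reads or more in the other library there were 4 such genes low in KO, Amd1 included, and 0 low in WT, and at 10 reads or more 32 and 4.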

How the data were processed

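Each genotype has 1 pooled liver library. The authors sequenced paired 100-base reads (CASAVA 1.8.2), ran RSEM 1.2.09 with Bowtie on mm10 (versions from the submitters' processing notes) and deposited posterior mean TPM for 24054 genes. Column totals were 1005325 (KO) and 994702 (WT). Per the file headers, the second table (16318 genes) holds a signal for each genotype from EBSeq, which divides estimated reads by a size factor; these are called the authors' means. Its fold changes and posterior probabilities are the authors' own comparison and were not used. RSEM divides a read that fits several genes among them. TPM here is a posterior mean, and the estimated reads are a separate estimate from the same reads. The condition columns were read as KO and WT in the order in which the comparison is named.

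The value of 1 read was taken as the most frequent positive value of the authors' means, 1.16 in KO and 0.860 in WT. Within 0.02, 78.4% and 75.0% of values were whole reads, so no p-value was computed from counts. For the intervals the estimated reads were rounded to whole reads, so the same limit applies and the intervals are approximate. Changes used a pseudocount of 1 TPM. Intervals are Clopper-Pearson at 95%. Coordinates are RefSeq genes on GRCm38, and transcripts are the longest protein-coding ones of GENCODE M21. Fold calls and intervals were tested on simulated data. Members, lists and tests were chosen with earlier results of these data known. Named were the members, Pgrmc1, the highest and lowest gene of each pathway group, pathway genes past the fold rule and the 5 genes most like Amd1. Any other gene was chosen after its values were seen. Computations used Python 3.11.15, numpy 2.4.6, pandas 2.3.3, scipy 1.17.1, biopython 1.88 and matplotlib 3.10.9.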

Additional observations from a re-analysis of the deposited data

How the results depend on the processing

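No paired analysis was possible because neither genotype has a replicate. The summed change of Amd1 and Amd2 ranged from -0.25 to -0.22 over other pseudocounts, scalings and the authors' means. It was -0.78 for Amd1 alone and 0.17 for Amd2 alone. The count of members past the fold rule was 1, and it was 0 with folds of 2 or 0.5, 0 with the authors' means (where Amd1, listed at 0 in KO, is left out by the condition on values of 0), and 0 with Amd1 and Amd2 summed. With the authors' means and no condition on values of 0, an alternative chosen after seeing the data, it was 1. The change of Amd1 from the authors' means was not computed, since the gene is listed at 0. Of 49 other values for single members, 48 moved by less than counting error, 1 moved by more (Amd2, to 0.04 with the authors' means) and 2 changed sign (Paox, to 0.01 both with the authors' means and after centring). Amd1 and Amd2 had no interval of their own, so their counting error was taken from the interval of the summed pair. Beside these, Oaz1 summed with Oaz1-ps, chosen after seeing the data, was at -0.01 in place of 0.03, a change of sign within counting error. The pathway median ranged from -0.01 to 0.03. Depth limits Sms and Srm most, while pooling limits all members.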

Other observations

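Eif3j1, the gene next to Amd1 in the ordering by reads, also has a listed relative of similar symbol, Eif3j2, which was chosen for this description after its values were seen. In TPM, Eif3j1 was at 25.20 in KO and 18.38 in WT and Eif3j2 at 17.99 and 29.34. In the authors' means, Eif3j1 was at 0.081 in KO and 482.05 in WT and Eif3j2 at 1583.74 and 1251.78. Summed, the 2 genes had 43.19 TPM in the KO and 47.72 TPM in the WT library, a log2 change of -0.14, and a log2 ratio of means of -0.13. As for the Amd pair, the tables differed in the division between the genes and gave nearly the same change for the sum. No explanation was tested.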
